A study of Mus musculus with 217 samples.

Results

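The comparison described here set 3 pools of granulosa cells from 10-month-old mice labelled Tet2 knockout and given resveratrol against 3 pools from mice of the same age and label given solvent. These 6 libraries were taken by the names of their count columns, out of 217 libraries in the series. The resveratrol pools (OKOR) came from mice that drank water with 30 mg of resveratrol per L, first dissolved in DMSO. The solvent pools (OKOC) came from mice that drank water with the DMSO alone, 500 µl per L. Treatment began at 2 months of age, and all mice had a mixed C57BL6/129 background. Where a second genotype is given, it is that of 3 resveratrol (OWTR) and 3 solvent (OWTC) pools from wild-type mice of the same age and background. The statistical model also held 6 young pools from 2-month-old mice, 3 labelled knockout (YKO) and 3 wild type (YWT), for which no water treatment is listed. Every mouse had been primed with 5 IU of pregnant mare serum gonadotropin, which drives follicle growth, 46 h before visible follicles were punctured. Oocytes were held back with a 40 µm strainer, and RNA was amplified with Smart-seq2, a full-length cDNA method for very small samples. The labels do not say how Tet2 was deleted or how many animals gave a pool, and their counts of cells in each pool disagree (500 or 50).

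Granulosa cells surround the oocyte, answer to follicle-stimulating hormone, make oestrogen from theca androgens and feed the oocyte through gap junctions. Macrophages are the most abundant immune cells of the mouse ovary, where they clear dying follicles and regressing corpora lutea, and blood or peritoneal cells can enter a pool when an ovary is punctured. Resveratrol is a plant polyphenol studied as an activator of the deacetylase SIRT1, an antioxidant and a ligand of the aryl hydrocarbon receptor.

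The resveratrol pools held 20076621, 16538616 and 13765321 counts, and the solvent pools 12210492, 12121306 and 20537935. Most young pools of the model were far shallower, at 749172, 11595710 and 722075 counts (labelled knockout) and 639907, 470647 and 500603 counts (wild type). Log2 levels of the resveratrol pools correlated with each other at 0.975 to 0.981 across genes (Pearson's r), and solvent replicates 1 and 2 at 0.981. Solvent replicate 3 stood a little apart, at 0.961 and 0.963 with the other two, so results that rest on it are given without it too. Tet2 itself went against the label. It had 17.7, 10.2 and 16.8 CPM (counts scaled to library size with TMM factors) in the resveratrol pools and 21.5, 13.5 and 11.9 CPM in the solvent pools, against 12.6, 16.7 and 14.4 CPM and 12.3, 12.8 and 9.72 CPM in wild-type resveratrol and solvent pools. The 4 ranges overlap, so the pools are called labelled knockout throughout. Granulosa identity genes summed to 6599 to 7282 CPM in the resveratrol pools and 6631 to 6758 CPM in the solvent pools. Oocyte markers summed to 3.66 to 5.46 CPM and 2.89 to 4.98 CPM. Since the labels name no animal, the spread behind each p-value is that between libraries and could be technical alone.

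Very few genes passed the test between the pools, and among those with a known product the one with the lowest p was Lyz1, a lysozyme gene of phagocytes and gut Paneth cells. Of 17558 genes tested in a model of all 18 granulosa pools, 5 passed an adjusted p of 0.05 (edgeR quasi-likelihood test, Benjamini-Hochberg), which is 0.0285% of the genes. Lyz1, the immunoglobulin kappa variable gene Igkv3-4 and the clone-named gene RP24-388D8.2 were lower in the resveratrol pools (3 genes, 0.0171%). The clone-named genes RP24-250M7.2 and RP24-156K1.1 were higher (2 genes, 0.0114%). At an unadjusted p under 0.05, 251 genes were higher (1.43%) and 367 lower (2.09%), and the median change of all genes was 0.01 on the log2 scale. The number of passing genes moved with the model: 13 of 16081 genes (0.0808%) passed when the model held only the 6 pools compared, 8 of 17192 (0.0465%) with the 12 old pools and 19 of 17528 by DESeq2 (0.108%). In edgeR 19 passed without solvent replicate 3, 3 without solvent replicate 2, 2 without resveratrol replicate 3 and 0 without resveratrol replicate 2, where 598 genes had an unadjusted p under 0.05.

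Lyz1 had 0.499, 0.788 and 3.86 CPM in the resveratrol pools, against 33.4, 48.7 and 24.3 CPM in the solvent pools. Every resveratrol pool was below every solvent pool, and the highest resveratrol pool was still several-fold under the lowest solvent pool. The log2 change was −4.40 (SE 0.69, n = 3 pools each, edgeR adjusted p = 0.0193). The call was lost without resveratrol replicate 1, without resveratrol replicate 2 and without solvent replicate 2 (edgeR adjusted p = 0.0856, 0.161 and 0.0874). It was also lost in DESeq2 (adjusted p = 0.192). The summed counts of Lyz1 and its neighbour Lyz2 did not pass (edgeR adjusted p = 1.00). Lyz2 made up nearly all of that sum, so the run repeats the test of Lyz2 and cannot judge the Lyz1 call.

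Lyz2, the main lysozyme of macrophages and neutrophils, lies beside Lyz1 on chromosome 10 and was far more abundant. It had 173, 142 and 274 CPM in the resveratrol pools and 827, 1106 and 778 CPM in the solvent pools. These ranges do not overlap either. The log2 change was −2.20, but its SE was 0.98 in the model of 18 pools and the adjusted p was 1.00 in edgeR. The 3 young pools labelled knockout, which enter the shared estimate of the spread, had 1.38, 633 and 0 CPM of Lyz2. In the model of the 6 pools alone the change was −2.21 with an SE of 0.25 (edgeR adjusted p = 0.0169).

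Because reads of near-identical genes can be exchanged, the 2 lysozyme genes were set side by side. None of the 1114 windows of 150 bases in the Lyz1 transcript occurs in the Lyz2 transcript. Only exact matches were searched, so an exchange of reads that align with mismatches was not tested. Lyz1 made up 0.287%, 0.550% and 1.39% of the counts of both genes in the resveratrol pools, against 3.88%, 4.22% and 3.03% in the solvent pools. The share of Lyz1 was thus lower in each resveratrol pool than in any solvent pool, and its counts there were 9, 13 and 53. The promoters of the pair are shown because the genes are adjacent copies and neither overlapped between the groups. They are the 250 bases before the annotated start on the minus strand, from RefSeq on GRCm38.p6, and lie at chr10:117292869-117293118 for Lyz1 and chr10:117282273-117282522 for Lyz2. Capitals mark the longest run that both share.
Lyz1: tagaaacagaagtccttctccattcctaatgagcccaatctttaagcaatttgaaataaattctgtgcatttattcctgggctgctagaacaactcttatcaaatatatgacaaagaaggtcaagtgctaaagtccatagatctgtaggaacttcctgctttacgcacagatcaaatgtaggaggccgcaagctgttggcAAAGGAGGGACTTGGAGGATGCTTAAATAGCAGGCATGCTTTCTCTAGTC
Lyz2: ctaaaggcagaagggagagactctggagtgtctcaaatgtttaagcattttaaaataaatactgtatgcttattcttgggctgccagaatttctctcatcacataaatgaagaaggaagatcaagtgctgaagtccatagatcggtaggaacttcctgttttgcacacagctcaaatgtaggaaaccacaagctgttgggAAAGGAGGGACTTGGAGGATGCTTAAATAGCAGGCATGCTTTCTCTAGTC
The 50 bases directly before the start are identical, and the aligned promoters match at 200 of 252 columns (79.4%).

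The macrophage and phagocyte markers as a group lay below the solvent pools, although Lyz1 alone passed the test over all genes. Of 22 markers, 20 passed the filter on low counts and 18 of these had a log2 change below 0, where 48.9% of all genes did. Their median change was −1.55, beside 0.01 for all genes tested. At an unadjusted p under 0.05, 13 were lower and 1, Cx3cr1, was higher. Without the filter on low counts 10 of the 22 passed as lower and Cx3cr1 as higher (edgeR), where 92 and 40 of 32472 genes did. In 12 markers all 3 resveratrol pools were below all 3 solvent pools, and in 1 they were above, where 5.31% and 4.98% of all genes showed these patterns. Summed over the list, the resveratrol pools held 382, 319 and 585 CPM and the solvent pools 1365, 1816 and 1389 CPM. Fewer macrophages in a pool and less of these RNAs per macrophage cannot be told apart in pooled cells.

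**Figure D1:**
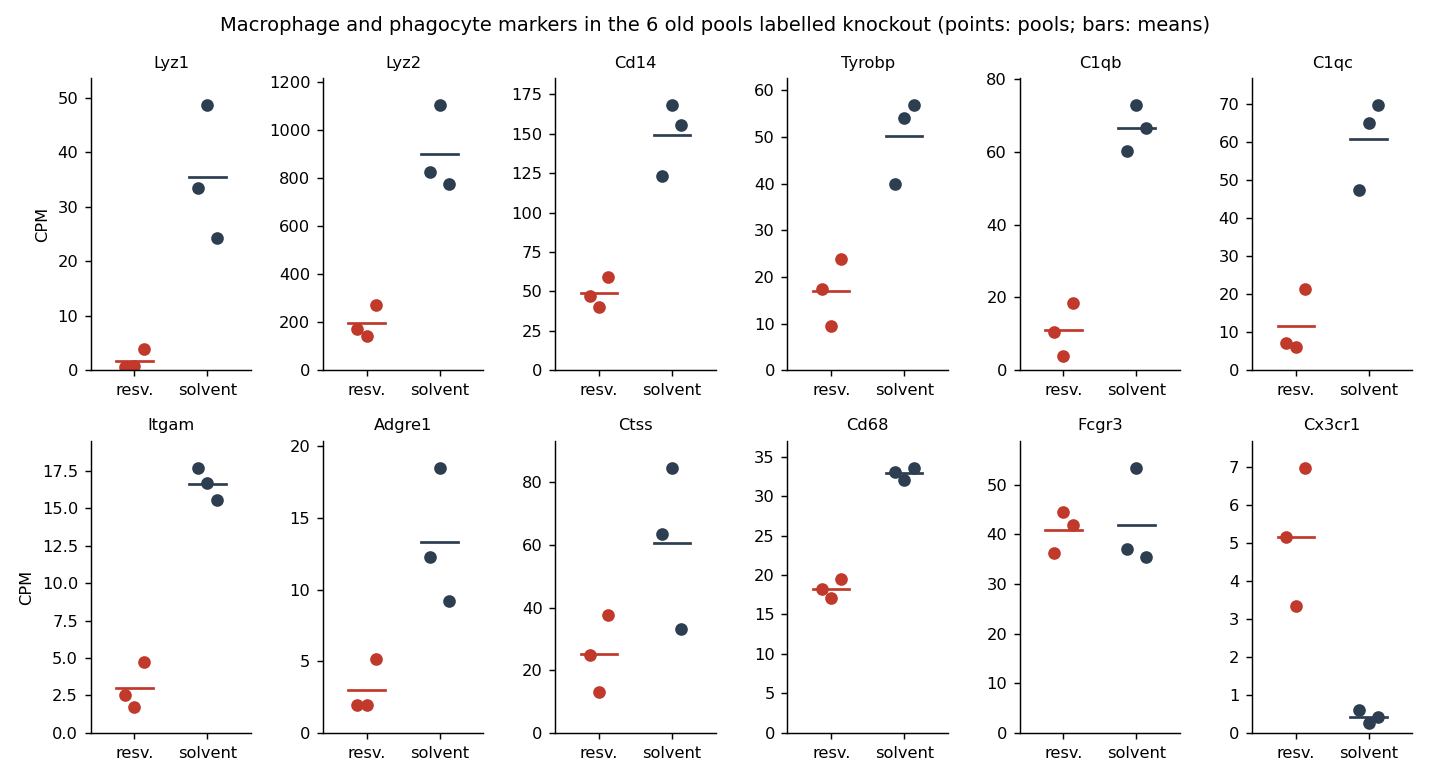
Level of 12 macrophage and phagocyte markers in CPM in the 3 resveratrol (left, red) and 3 solvent (right, dark) pools from old mice labelled knockout, with 1 point per pool and a bar at the mean. Resveratrol pools lie below all solvent pools for Lyz1, Lyz2, Cd14, Tyrobp, C1qb, C1qc, Itgam, Adgre1 and Cd68, the groups overlap for Ctss and Fcgr3, and Cx3cr1 is higher in the resveratrol pools.

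Among the receptors and adaptors of this list, Cd14, the co-receptor for bacterial lipopolysaccharide, had 47.1, 40.2 and 59.2 CPM in the resveratrol pools and 124, 168 and 156 CPM in the solvent pools. Tyrobp, the signalling adaptor of many myeloid receptors, had 17.4, 9.52 and 23.9 CPM against 40.0, 54.0 and 56.8 CPM. Itgam, which encodes the integrin CD11b, had 2.55, 1.76 and 4.73 CPM in resveratrol pools and 17.7, 16.7 and 15.6 CPM in solvent pools. No resveratrol pool reached a solvent pool in any of these genes. Adgre1, the gene of the F4/80 antigen of mature mouse macrophages, had 1.94, 1.94 and 5.17 CPM in the resveratrol pools and 12.2, 18.5 and 9.17 CPM in the solvent pools. Cd68, a lysosomal membrane glycoprotein, differed less but with little spread, at 18.2, 17.1 and 19.5 CPM against 33.0, 32.0 and 33.6 CPM. Their log2 changes were −1.61 (Cd14), −1.57 (Tyrobp), −2.47 (Itgam), −2.14 (Adgre1) and −0.85 (Cd68), with edgeR adjusted p-values of 0.714 to 1.00 in the model of 18 pools. In the model of the 6 pools, Lyz1, Lyz2, Cd14 and Itgam passed as lower and Cx3cr1 as higher, where 0.0684% and 0.0124% of all genes did. Cd14 had an SE of 0.55 with 18 pools and 0.20 with 6, and an adjusted p of 0.0169 in the second (edgeR).

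The complement C1q genes, whose 3 products assemble into the protein that recognises immune complexes and dying cells, differed in the same direction. C1qb had 10.4, 4.00 and 18.4 CPM in the resveratrol pools and 60.1, 72.9 and 66.6 CPM in the solvent pools. C1qc had 7.2, 6.18 and 21.3 CPM against 47.3, 65.0 and 69.7 CPM. C1qa had 6.26, 5.88 and 11.9 CPM against 14.3, 30.2 and 47.1 CPM. The groups do not overlap in any of the 3 genes, and resveratrol replicate 3 was the highest of its group in each. The log2 changes were −2.61 (SE 0.81), −2.40 (SE 0.63) and −1.94 (SE 0.75), and none passed (edgeR adjusted p = 0.830, 0.455 and 1.00). With the 6 pools alone the adjusted p-values in edgeR were 0.0547, 0.0724 and 0.176.

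C1qb and C1qc sit close together on chromosome 4, and their promoters are shown because the pair showed similar differences and because the macrophage regulator PU.1, the product of the list member Spi1, is known to bind purine-rich letters of the form GAGGAA. Both are the 250 bases before the start on the minus strand (RefSeq, GRCm38.p6), at chr4:136886201-136886450 and chr4:136892915-136893164. Capitals mark GAGGAA or its reverse complement.
C1qb: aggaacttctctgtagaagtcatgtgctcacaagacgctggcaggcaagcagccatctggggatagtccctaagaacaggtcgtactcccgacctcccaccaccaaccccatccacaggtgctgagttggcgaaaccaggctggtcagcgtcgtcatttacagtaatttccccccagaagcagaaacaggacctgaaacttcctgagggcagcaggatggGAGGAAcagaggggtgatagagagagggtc
C1qc: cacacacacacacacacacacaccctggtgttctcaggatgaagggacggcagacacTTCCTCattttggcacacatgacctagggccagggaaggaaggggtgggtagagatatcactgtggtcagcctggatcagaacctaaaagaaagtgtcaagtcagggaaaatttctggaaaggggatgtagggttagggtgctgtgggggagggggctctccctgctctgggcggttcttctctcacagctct
The letters GAGGAA, searched on both strands, occur in 23.1% of 27025 promoters of this length and in 11 of the 16 macrophage markers that have a promoter in the table. A longer form, GAGGAAGT, occurs in 2.44% of all these promoters and in only 1 of the 16, that of C1qc. The Lyz1 and Lyz2 promoters above hold neither. Spi1 itself had 1.108, 2.49 and 2.04 CPM in the resveratrol pools and 3.29, 4.43 and 6.85 CPM in the solvent pools, without overlap (log2 −1.38, SE 0.55, edgeR adjusted p = 1.00). The motif counts describe the promoters only, and a part of PU.1 in the differences between the pools was not tested.

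Not every marker followed this pattern. Fcgr3, a low-affinity receptor for immunoglobulin G, had 36.3, 44.4 and 41.9 CPM in the resveratrol pools and 36.9, 53.4 and 35.3 CPM in the solvent pools. Csf1r, the receptor for the macrophage growth factor CSF1, had 7.2, 8.79 and 12.7 CPM against 7.76, 7.99 and 14.3 CPM. Both sets of pools overlap fully, with log2 changes of −0.03 (SE 0.30) and −0.08 (SE 0.41). Ptprc, the gene of the leukocyte antigen CD45, also overlapped at 3.1, 4.91 and 10.1 CPM against 7.25, 11.5 and 6.44 CPM. Cx3cr1, the fractalkine receptor, went the other way with 5.15, 3.33 and 6.99 CPM in resveratrol pools and 0.590, 0.261 and 0.412 CPM in solvent pools. All resveratrol pools were above all solvent pools (log2 3.58, SE 0.78, edgeR adjusted p = 0.170, DESeq2 adjusted p = 0.0329). Mrc1 and Ms4a7 did not pass the filter on low counts, at 0.0515 to 1.46 CPM and 0 to 1.03 CPM over the 6 pools.

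Several genes outside the list shared the lower level, and their values were seen before they were chosen. They passed in the model of the 6 pools or in DESeq2, not in the model of 18 pools. Alox15, a lipoxygenase of resident peritoneal macrophages in mice, had 11.7, 11.8 and 22.7 CPM in the resveratrol pools and 66.7, 86.4 and 99.2 CPM in the solvent pools (log2 −2.45, SE 0.58). Cd5l, a secreted inhibitor of apoptosis from macrophages, had 1.27, 0.667 and 4.08 CPM against 34.3, 18.8 and 25 CPM (log2 −3.71, SE 0.69). Pla2g7, the plasma platelet-activating factor hydrolase, had 2.77, 3.27 and 5.68 CPM against 24.1, 39.4 and 21.8 CPM (log2 −2.87, SE 0.55). The pools did not overlap in any of the 3, and the edgeR adjusted p-values with 18 pools were 0.263, 0.0680 and 0.0680. Icam2, an adhesion molecule of endothelium and leukocytes, had 5.04, 1.76 and 4.29 CPM in resveratrol pools and 17.1, 23.3 and 21.2 CPM in solvent pools. F5, coagulation factor V, had 2.05, 2.00 and 3.2 CPM against 10.9, 15.4 and 10.0 CPM. Endothelial markers summed to 19.8 to 21.6 CPM in the resveratrol pools and 16.4 to 23.6 CPM in the solvent pools, and their part in the Icam2 levels was not tested.

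DESeq2 called 0.0742% of all genes lower and 0.0342% higher. Among the lower ones was Pycard, the adaptor of inflammasomes, at 8.92, 6.61 and 9.68 CPM in resveratrol pools and 22.6, 24.4 and 21.3 CPM in solvent pools (DESeq2 adjusted p = 0.00147, edgeR adjusted p = 0.263). Ahcy, which hydrolyses S-adenosylhomocysteine, had 7.98, 11.6 and 7.64 CPM against 31.0, 36.6 and 12.3 CPM (DESeq2 adjusted p = 0.00338, edgeR adjusted p = 0.0704). Fads6, a fatty acid desaturase-like gene, had 13.9, 8.12 and 11.3 CPM against 27.3, 27.5 and 35.7 CPM (DESeq2 adjusted p = 0.00286, edgeR adjusted p = 0.0680). In each of these genes the resveratrol pools were all below the solvent pools. The others that DESeq2 placed lower included Efemp1, Lgals3bp and Prg4, with log2 changes of −1.68, −1.56 and −1.27. Serpinb2, an inhibitor of urokinase that macrophages make, was at −1.47 and passed in neither tool (adjusted p = 0.263 in edgeR and 0.110 in DESeq2).

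MHC class II genes, which present antigen on dendritic cells, B cells and activated macrophages, had overlapping levels in the pools of both treatments. Of 9 tested genes 7 had a log2 change below 0, none reached an unadjusted p of 0.05, and 2 had all resveratrol pools below all solvent pools (5.31% of all genes). Their median change was −0.37. The list summed to 180, 331 and 551 CPM in the resveratrol pools and 277, 355 and 479 CPM in the solvent pools, so the highest and the lowest pool were both resveratrol pools. H2-Aa, the class II alpha chain, had 28.7, 60.2 and 134 CPM against 63.9, 77.6 and 102 CPM. H2-Eb1, a beta chain, had 14.2, 27.0 and 53.6 CPM against 6.75, 7.21 and 41.0 CPM. Cd74, the invariant chain that guards the binding groove, had 65.2, 146 and 203 CPM against 121, 172 and 200 CPM. All 3 genes overlapped between the groups, with log2 changes of −0.13 (SE 0.49), 0.77 (SE 0.54) and −0.25 (SE 0.52).

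Class II promoters are known for conserved X and Y boxes, and those of H2-Aa and H2-Eb1 are shown for contrast with the promoters above. The 250 bases before each start (RefSeq, GRCm38.p6) lie at chr17:34287824-34288073 on the minus strand and chr17:34305617-34305866 on the plus strand. Capitals mark the Y box letters CTGATTGG and the X box letters CAACNGATG, searched on both strands.
H2-Aa: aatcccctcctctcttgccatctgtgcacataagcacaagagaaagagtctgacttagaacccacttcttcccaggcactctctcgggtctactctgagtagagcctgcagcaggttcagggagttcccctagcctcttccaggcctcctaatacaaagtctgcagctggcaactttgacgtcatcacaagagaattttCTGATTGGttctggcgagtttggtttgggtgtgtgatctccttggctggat
H2-Eb1: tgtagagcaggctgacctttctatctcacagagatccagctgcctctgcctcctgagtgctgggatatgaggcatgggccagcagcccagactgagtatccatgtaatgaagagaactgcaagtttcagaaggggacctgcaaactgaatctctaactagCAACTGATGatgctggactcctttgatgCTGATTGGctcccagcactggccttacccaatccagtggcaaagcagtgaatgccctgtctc
H2-Eb1 holds an X box followed by a Y box and H2-Aa a Y box. The Y box letters occur in 4.07% of all promoters of this length and in 3 of 7 class II genes with a promoter in the table, and the X box letters in 0.400% and 1 of 7. Neither occurs in the 16 macrophage promoters.

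B and plasma cell markers were present at levels that varied from pool to pool. They summed to 97.3, 216 and 353 CPM in the resveratrol pools and 154, 265 and 605 CPM in the solvent pools. Of 11 tested, 9 had a log2 change below 0, where 48.9% of all genes did. Only Igkv3-4 passed as lower, where 0.0171% of all genes did. The list was drawn up with earlier results of these data known, so this pass says nothing about the list as a whole. Igkv3-4, one variable gene of the antibody kappa chain on chromosome 6, had 0.0554, 0.0606 and 0 CPM in the resveratrol pools and 1.01, 4.25 and 78.1 CPM in the solvent pools. Its call rested on solvent replicate 3, and it was also lost with any 1 resveratrol pool left out (edgeR adjusted p = 0.215 to 0.304). The ratio of solvent to resveratrol levels was 890 with a 95% counting interval of 246 to 7354 (2 counts over the resveratrol pools), and 63.0 without solvent replicate 3, where the edgeR adjusted p was 0.211. With all pools the edgeR adjusted p was 0.0485. Igkc, the kappa constant gene, had 41.0, 27.6 and 40.8 CPM in the resveratrol pools and 59.2, 102 and 161 CPM in the solvent pools (log2 −1.56, SE 0.58, edgeR adjusted p = 1.00). Iglc1, a lambda constant gene, had 1.33, 20.4 and 57.4 CPM against 1.69, 5.64 and 5.82 CPM, with overlap. The B-cell receptor component Cd79a had 8.48, 21.0 and 22.9 CPM against 10.7, 22.4 and 65.1 CPM, and it overlapped too.

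Inflammatory cytokine genes and the feedback genes of NF-kappaB, the transcription factor that drives them, had lower sums in the resveratrol pools. The 24 genes summed to 512, 517 and 552 CPM in the resveratrol pools and 825, 859 and 814 CPM in the solvent pools, with a gap between the groups wider than either group. Of 23 tested members 17 had a log2 change below 0 and 6 an unadjusted p under 0.05, all lower (2.09% of all genes). In 7 the resveratrol pools were all below the solvent pools (5.31% of all genes). No member passed over all genes in the model of 18 pools, and the median change was −0.53, or −0.32 without resveratrol replicate 1. Without the filter on low counts Il6, Il1a, Cxcl1, Ccl5 and Cxcl2 passed as lower (edgeR), where 92 of 32472 genes did. Il6, the cytokine of the acute phase response, had 27.4, 17.5 and 16.8 CPM in resveratrol pools and 62.8, 59.0 and 36.7 CPM in solvent pools (log2 −1.36, SE 0.41, edgeR adjusted p = 0.714). Cxcl1, a chemoattractant for neutrophils, had 33.0, 25 and 27.9 CPM against 63.2, 76.9 and 55.9 CPM (log2 −1.19, SE 0.38, edgeR adjusted p = 0.857). Cxcl2, a second such chemokine, had 16.6, 13.6 and 28.5 CPM against 66.1, 50.4 and 61.5 CPM. The groups do not overlap in these 3 genes. Nfkbia, the inhibitor that NF-kappaB induces, had 202, 239 and 191 CPM against 270, 293 and 356 CPM, also without overlap (log2 −0.54, SE 0.30). Il1b overlapped, at 22.6, 9.58 and 42.4 CPM against 39.0, 55.4 and 14.5 CPM. The part of the macrophage markers in the cytokine sums was not tested. Sums of other lists did not overlap either. Unfolded protein response genes summed to 5637 to 5899 CPM in the resveratrol pools and 6025 to 6255 CPM in the solvent pools. Cytosolic ribosomal protein genes summed to 66501 to 83852 CPM and 60933 to 65432 CPM.

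**Figure D2:**
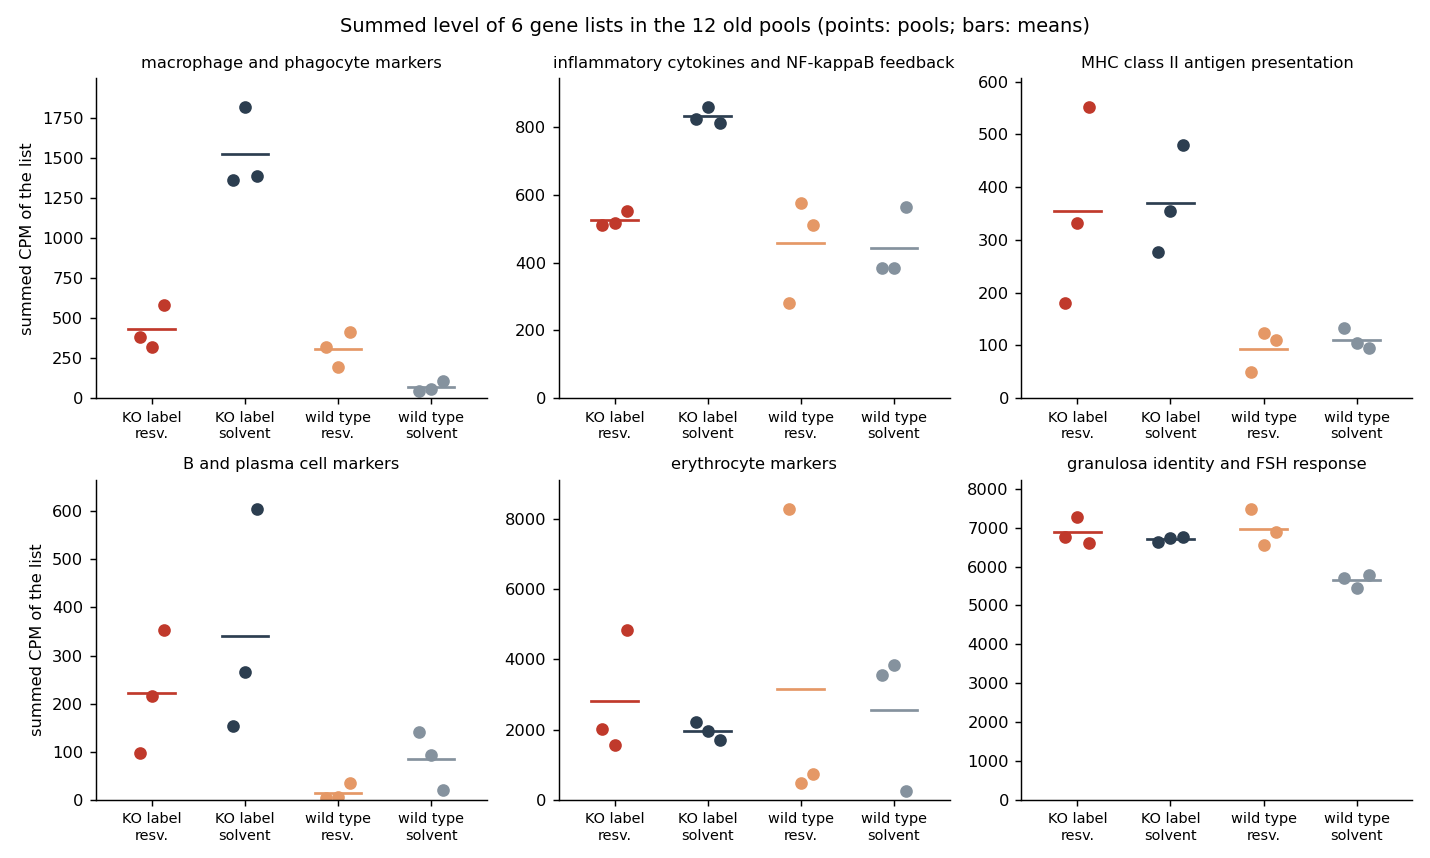
Summed level of 6 gene lists in CPM (y axes from 0) in the 12 old pools, with 1 point per pool and a bar at the mean: labelled knockout with resveratrol, labelled knockout with solvent, wild type with resveratrol, wild type with solvent. Macrophage and inflammatory sums separate the treatments in pools labelled knockout, while class II, B-cell, erythrocyte and granulosa sums overlap there.

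Neutrophil and red-cell transcripts varied between pools of the same treatment. Of 5 tested neutrophil markers 3 had a log2 change above 0 and 2 below, and the list summed to 111 to 182 CPM in the resveratrol pools and 96.7 to 156 CPM in the solvent pools. S100a8, a calcium-binding protein of neutrophils, had 14.1, 0 and 42.0 CPM in the resveratrol pools and 0.422, 1.74 and 0.155 CPM in the solvent pools, so resveratrol replicate 2 lay below every solvent pool (log2 4.68, SE 1.22, edgeR adjusted p = 0.423). S100a9, its partner, had 7.87, 0.121 and 22.3 CPM against 0, 0.261 and 0.155 CPM. Both passed as higher without the filter on low counts (edgeR adjusted p = 6.3e-19 for S100a8 and 3.1e-17 for S100a9). Their log2 changes hardly moved there (4.67 and 6.04). The SE fell from 1.22 to 0.48 and from 1.51 to 0.65, so these p-values reflect a smaller fitted spread, not more even pools. Retnlg, another member of the list, also passed as higher without that filter. The neutrophil genes Ly6g and Ngp had no count in any of the 6 pools. S100a8 and S100a9 made up little of the list sum in the solvent pools, which came mostly from other members. Erythrocyte markers, mostly globins, summed to 2024, 1572 and 4844 CPM in resveratrol pools and 2221, 1962 and 1703 CPM in solvent pools. Resveratrol replicate 3, the highest of these, was also the highest resveratrol pool for the macrophage, class II and B-cell sums.

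The granulosa programme itself showed no gene past the threshold. Among 23 tested identity and follicle-stimulating hormone response genes, 13 were above and 10 below 0, with a median change of 0.02. Cyp19a1, the aromatase that makes oestrogen, had 11, 7.34 and 9.75 CPM in the resveratrol pools and 4.72, 3.39 and 2.78 CPM in the solvent pools. All resveratrol pools were higher (log2 1.37, SE 0.49), and the adjusted p was 0.997 (edgeR). Foxl2, the transcription factor that keeps granulosa identity, had 11, 7.58 and 9.53 CPM against 5.23, 6.25 and 6.34 CPM, again without overlap (log2 0.66, SE 0.34). Fshr, the receptor for follicle-stimulating hormone, had 8.98, 9.40 and 10.9 CPM against 11.3, 9.20 and 11 CPM, with overlap. Serpine2, one of the most abundant granulosa transcripts, differed by 0.02 on the log2 scale (SE 0.15).

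Steroidogenic and ovulatory genes lay close to 0 as well. The 19 luteinization and steroidogenesis genes had a median change of −0.03 and the 14 ovulation and cumulus genes one of −0.01, and no member passed. Hsd3b1, which makes progesterone from pregnenolone, had 2537, 1376 and 1202 CPM in the resveratrol pools and 1224, 1100 and 1227 CPM in the solvent pools (log2 0.53, SE 0.23), with overlap. Cyp11a1, the side-chain cleavage enzyme that starts steroid synthesis, differed by −0.03 (SE 0.31) and Star, which brings cholesterol into mitochondria, by −0.03 (SE 0.35).

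Most genes of translation and respiration had small log2 changes above 0, and none passed. Of 79 cytosolic ribosomal protein genes 78 had a log2 change above 0, where 51.0% of all genes did, with a median of 0.19, and 12 had all resveratrol pools above all solvent pools (4.98% of all genes). Of 74 nuclear genes of oxidative phosphorylation 66 were above 0, with a median of 0.15. Among the 74, 1 had all resveratrol pools above and 3 all below the solvent pools (4.98% and 5.31% of all genes). Their sums overlapped, at 22123 to 27717 CPM in the resveratrol pools and 21494 to 22553 CPM in the solvent pools. Both medians stayed above 0 with other size factors and with any 1 of the compared pools left out. They were at 0.06 to 0.28 and 0.01 to 0.23, each lowest without resveratrol replicate 1. Cholesterol synthesis and uptake genes leaned the other way, with 20 of 25 below 0 and a median of −0.18. The ribosomal gene with the lowest p, Rps18, had 885, 635 and 615 CPM in the resveratrol pools and 176, 146 and 658 CPM in the solvent pools. Its change of 1.123 (SE 0.35, edgeR adjusted p = 0.783) rested on solvent replicates 1 and 2, since solvent replicate 3 lay among the resveratrol pools. Without solvent replicate 3, Rps18 passed as higher (log2 2.14, SE 0.22, edgeR adjusted p = 8.6e-06), and so did Rps2 (log2 2.09, SE 0.41, edgeR adjusted p = 0.0377). Rps18 also passed without the filter on low counts (edgeR adjusted p = 8.4e-05).

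No proposed target of resveratrol passed the test. Of 13 tested sirtuins and related genes 9 were above 0, with a median change of 0.07, and none had an unadjusted p under 0.05. Sirt1, the deacetylase most often named as a target, had 11, 12.6 and 13.8 CPM in the resveratrol pools and 26.9, 12.2 and 6.70 CPM in the solvent pools. The solvent pools spanned both sides of the resveratrol pools (log2 −0.28, SE 0.38, 95% interval −1.07 to 0.50), and the change was 0.41 without solvent replicate 1. Sirt3, its mitochondrial relative, differed by −0.28 (SE 0.25). Of 4 tested genes of the aryl hydrocarbon receptor 2 were above and 2 below 0, with a median change of 0.06. The member with the lowest p, the target gene Tiparp, had 41.8, 57.1 and 56.9 CPM against 99.0, 89.3 and 62.0 CPM, without overlap (log2 −0.68, SE 0.26, edgeR adjusted p = 1.00). Cyp1a1, the best-known target of that receptor, had no count in any of the 6 pools. Among 29 antioxidant enzymes the median change was 0.06 and Gpx3, the secreted glutathione peroxidase, was the member with the lowest p, at 242, 258 and 174 CPM against 96.8, 127 and 154 CPM (log2 0.84, SE 0.33, edgeR adjusted p = 1.00).

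Of the remaining lists, Tet and DNA methylation genes had a median of 0.09, cell cycle genes 0.12, heat shock chaperones 0.01, unfolded protein response genes −0.06, p53 targets and senescence genes −0.11, interferon response genes −0.26 and immediate early genes −0.31. No member of these lists passed. Tet1 and Tet3, the relatives of Tet2, differed by −0.27 (SE 0.50) and 0.14 (SE 0.26). Dnmt3a, a writer of new DNA methylation, had 19.6, 23.3 and 20.9 CPM in the resveratrol pools and 15.6, 14.2 and 12.8 CPM in the solvent pools, without overlap (log2 0.58, SE 0.23, edgeR adjusted p = 1.00). Asns, asparagine synthetase, had 65.5, 115 and 104 CPM against 57, 62.4 and 59.2 CPM (log2 0.67, SE 0.24, edgeR adjusted p = 1.00). Lists of theca, stromal, endothelial and surface epithelium markers had 3 to 5 tested members and those of T and NK cells and of osteoclast-like genes 6 and 4, and none of these members passed.

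**Figure D3:**
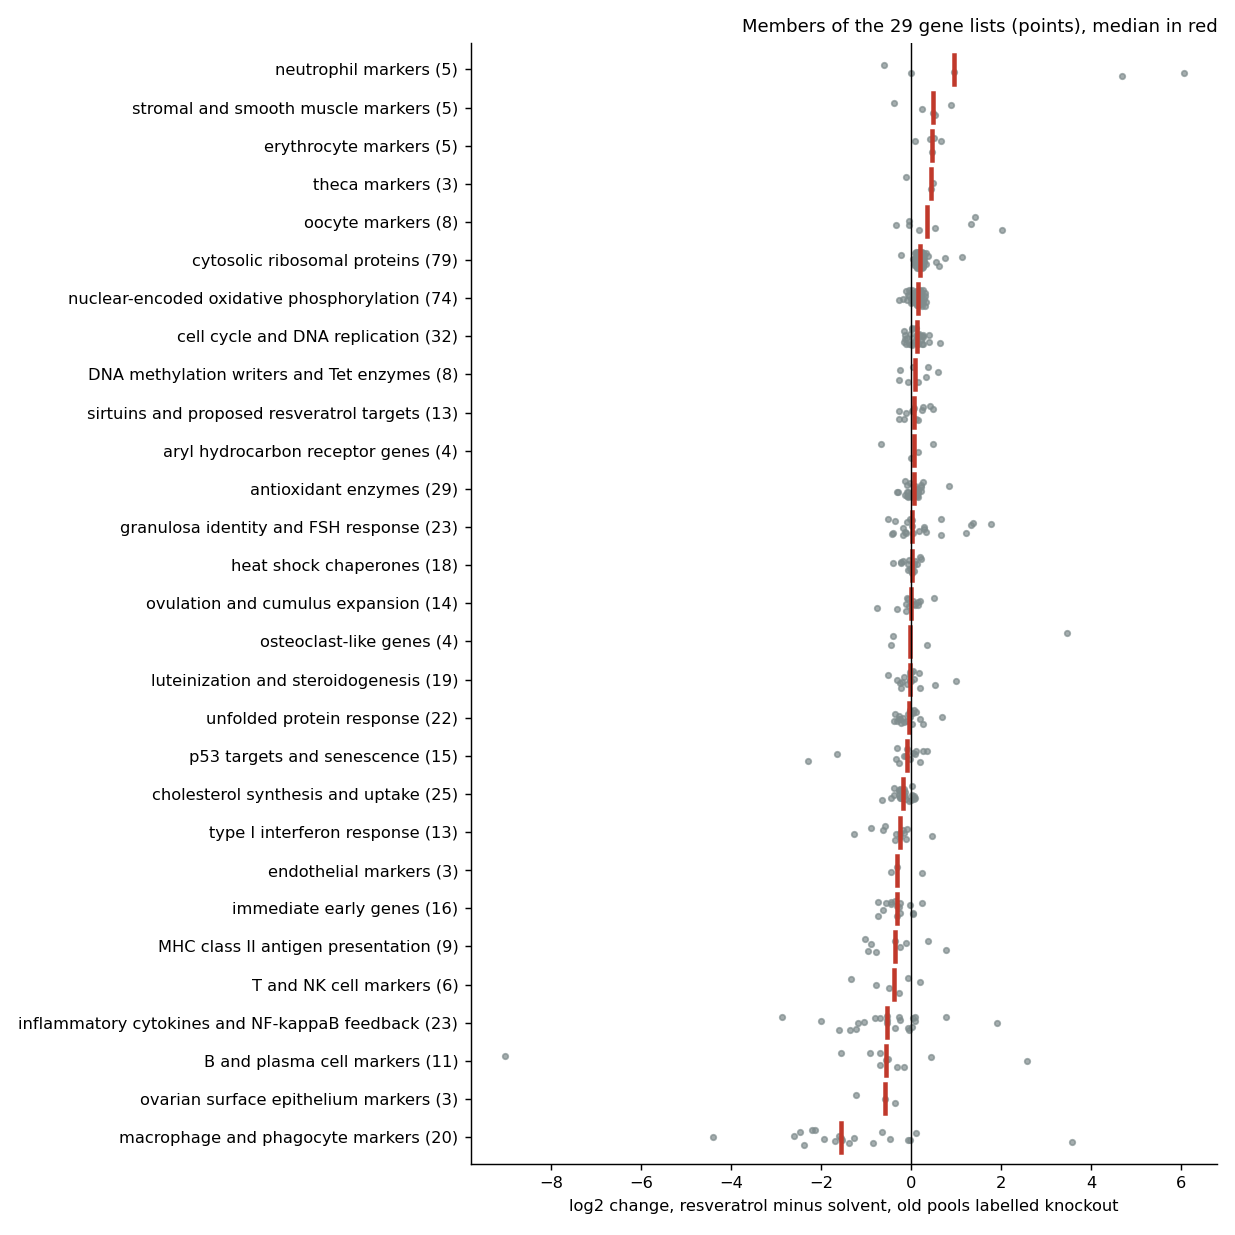
Log2 change (resveratrol minus solvent, old pools labelled knockout) of every tested member of 29 gene lists, with 1 point per gene, a red mark at the list's median and the number tested in brackets. The macrophage markers have the lowest median, −1.55, and the ribosomal and oxidative phosphorylation genes form narrow bands just above 0.

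Both genes that passed as higher, and 1 that passed as lower, were clone-named models without a position in the annotation used. RP24-250M7.2 had 15.4, 33.3 and 32.8 CPM in the resveratrol pools and 3.37, 4.60 and 5.36 CPM in the solvent pools (log2 2.6, SE 0.36, edgeR adjusted p = 0.00862). The groups do not overlap, but the call was lost without resveratrol replicate 2 (edgeR adjusted p = 0.0520). Wild-type pools of the same age had 25.9 to 54.0 CPM with resveratrol and 59.2 to 69.9 CPM with solvent. RP24-156K1.1 had 1.88, 35.1 and 37.6 CPM in the resveratrol pools, against 1.43, 2.26 and 1.34 CPM in the solvent pools (log2 3.90, SE 0.64, edgeR adjusted p = 0.0193). Resveratrol replicate 1 was at the level of the solvent pools for this gene. RP24-388D8.2 had 2.55, 3.09 and 2.18 CPM in the resveratrol pools and 16.4, 17.5 and 11.9 CPM in the solvent pools (log2 −2.54, SE 0.46, edgeR adjusted p = 0.0485). Its level in the 12 other pools of the model ran from 1.52 to 15 CPM. Of these, RP24-250M7.2 kept its call in the models of 6 and of 12 pools, RP24-388D8.2 in that of 6 and RP24-156K1.1 in neither (edgeR adjusted p = 0.176 and 0.0750). With 1 compared pool left out, RP24-388D8.2 passed only without solvent replicate 3 (edgeR adjusted p = 0.0881 to 0.328 in the other runs). RP24-156K1.1 passed only without resveratrol replicate 1 (edgeR adjusted p = 0.0505 to 0.105 in the other runs).

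Annotated genes with higher levels came closest to the threshold in Banp and Polr2k. Banp, a DNA-binding protein of CpG island promoters, had 17.0, 30.7 and 26.6 CPM in the resveratrol pools and 9.19, 9.99 and 12 CPM in the solvent pools (log2 1.25, SE 0.25, edgeR adjusted p = 0.0820, DESeq2 adjusted p = 0.00789). Polr2k, a subunit shared by the nuclear RNA polymerases, had 40.0, 44.6 and 65.6 CPM against 28.0, 21.6 and 13.6 CPM (log2 1.25, SE 0.27, edgeR adjusted p = 0.121, DESeq2 adjusted p = 0.0135). The pools did not overlap in either gene. Il1rn, the antagonist of the interleukin-1 receptor, had 14.1, 7.34 and 20.7 CPM in resveratrol pools and 4.47, 5.30 and 4.89 CPM in solvent pools. Rhox8, a homeobox gene of Sertoli and granulosa cells, had 173, 132 and 170 CPM against 86.4, 57.7 and 93.8 CPM. Neither Il1rn nor Rhox8 passed in either tool, and their log2 changes were 1.52 and 1.00.

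**Figure D4:**
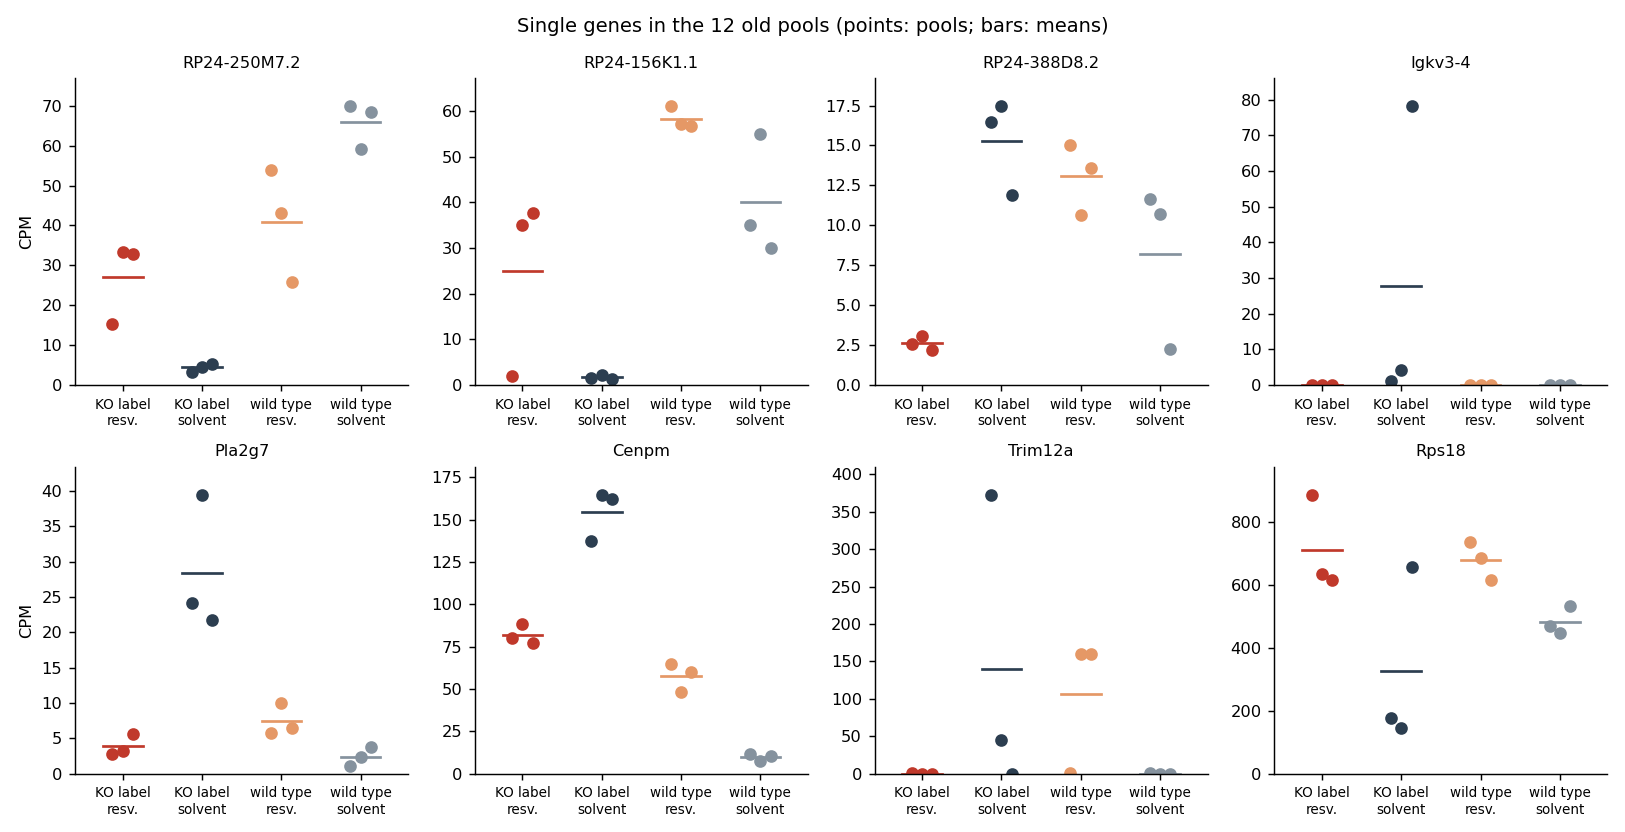
Level of 8 genes in CPM (y axes from 0) in the 12 old pools, with 1 point per pool and a bar at the mean, in the order labelled knockout with resveratrol, labelled knockout with solvent, wild type with resveratrol, wild type with solvent. Igkv3-4, Trim12a and RP24-156K1.1 are high in some pools of a group and near 0 in others, while RP24-250M7.2, Pla2g7 and Cenpm separate the pools labelled knockout by treatment.

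Whether these changes differ from those in wild-type mice was tested as the difference of the 2 resveratrol effects, which share no library. In this contrast 28 of 17558 genes passed (edgeR adjusted p under 0.05, 0.159%), 26 of them with the lower effect in pools labelled knockout. The count was 4 without wild-type solvent replicate 2 and 51 without solvent replicate 3 of the pools labelled knockout. Of the 28, 25 had a log2 change below 0 in the pools labelled knockout and above 0 in wild-type pools. The macrophage list held 6 of them, Cd68, Tyrobp, C1qc, Spi1, C1qb and Fcer1g, where 0.148% of all genes passed in that direction. Over the 20 tested markers the median change was −1.55 in pools labelled knockout and 2.13 in wild-type pools.

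The solvent pools of the 2 labels had very different levels of these markers. Summed macrophage markers were 195 to 410 CPM in wild-type resveratrol pools and 41.0 to 107 CPM in wild-type solvent pools, all far under the 1365 to 1816 CPM of the solvent pools labelled knockout. Cd68 had 62.5, 22.6 and 25.9 CPM in wild-type resveratrol pools and 6.06, 8.63 and 7.68 CPM in wild-type solvent pools. The difference of the effects was −3.14 (SE 0.46, edgeR adjusted p = 0.00469). Tyrobp had 51.9, 17.2 and 26.3 CPM in wild-type resveratrol pools against 1.09, 0.937 and 4.27 CPM in wild-type solvent pools, and the difference was −5.43 (SE 0.79, edgeR adjusted p = 0.00497). For C1qc the difference was −6.83 (edgeR adjusted p = 0.00663). The 2 lysozymes did not pass (differences of −5.34 for Lyz1 and −4.36 for Lyz2, edgeR adjusted p = 0.337 and 0.357). Pools with resveratrol were thus closer to each other across genotype labels, at 319 to 585 and 195 to 410 CPM, than pools with solvent.

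**Figure D5:**
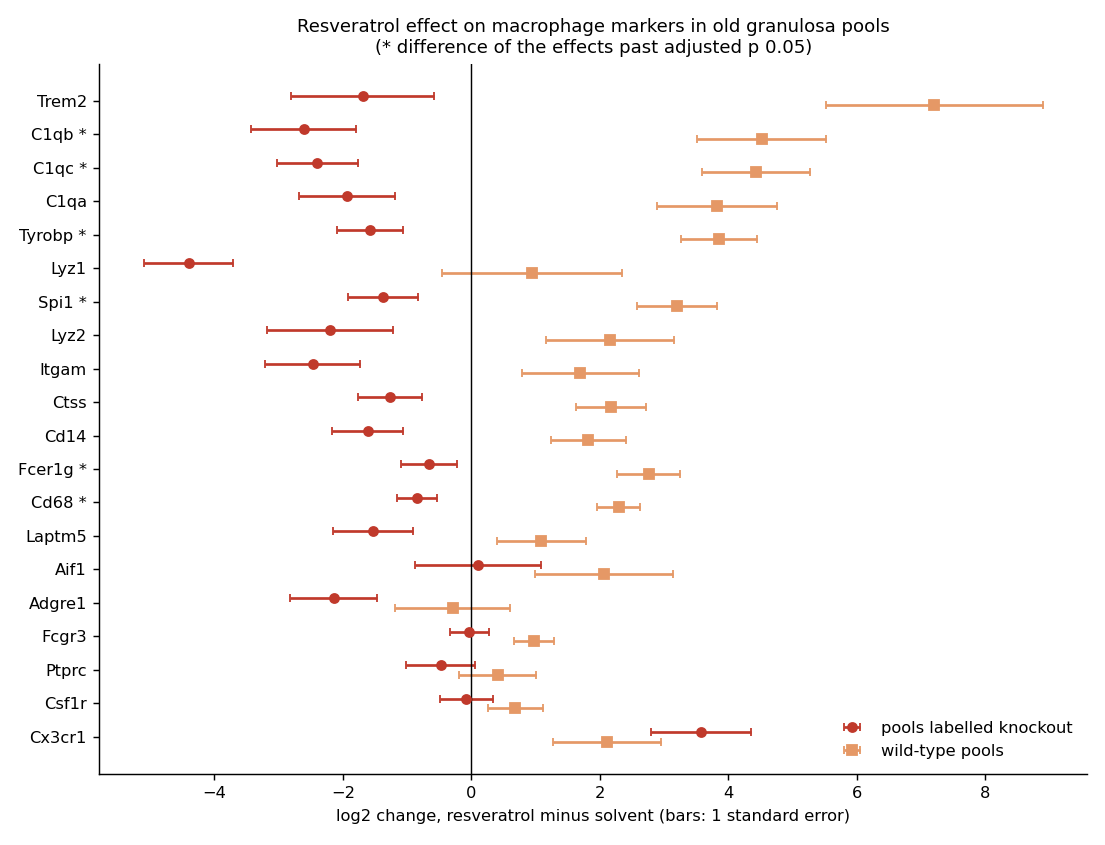
Log2 change with resveratrol (bars: 1 standard error) of the 20 tested macrophage markers in old pools labelled knockout (red circles) and in old wild-type pools (orange squares), with an asterisk where the difference of the effects passed. Most markers lie below 0 in the pools labelled knockout and above 0 in wild-type pools, and Cx3cr1 lies above 0 in both.

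Outside the macrophage list, Cenpm, a component of the inner kinetochore, had 80.5, 88.6 and 77.4 CPM in the resveratrol pools labelled knockout and 137, 165 and 163 CPM in the solvent pools. In wild-type pools it had 64.6, 48.0 and 60.0 CPM with resveratrol and 11.8, 7.64 and 10.2 CPM with solvent, so neither pair overlapped. The difference of the effects was −3.47 (SE 0.56, edgeR adjusted p = 0.00663). Pla2g7 had 5.71, 10.0 and 6.51 CPM in wild-type resveratrol pools and 1.09, 2.32 and 3.78 CPM in wild-type solvent pools, with a difference of −4.42 (edgeR adjusted p = 0.0149). Alox15 behaved otherwise. It averaged 5.31 ± 4.30 CPM in wild-type resveratrol pools and 30.9 ± 13.9 CPM in wild-type solvent pools (SD, n = 3 each), so its change was −2.45 with one label and −2.55 with the other, and the difference of 0.09 did not pass (SE 0.80, edgeR adjusted p = 0.991).

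Single oocytes with the same labels gave a separate readout of the 5 passing genes and Lyz2, without a test because no mouse is named. Summed over 15 oocytes each, RP24-250M7.2 stood at 7.76 CPM in resveratrol oocytes and 5.02 CPM in solvent oocytes, and RP24-388D8.2 at 2.81 CPM and 4.38 CPM. RP24-156K1.1 had 3 counts in 1 resveratrol oocyte and 1 count in 1 solvent oocyte. Lyz1 and Igkv3-4 had no count in either. Lyz2 had 1 count in 1 of 15 resveratrol oocytes and 430 counts in 7 of 15 solvent oocytes.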

How the data were processed

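Counts per gene were deposited by the authors as whole numbers, in 1 table that holds both the granulosa pools and the single oocytes used here; a second table was not used. Per the submitters' processing notes, HISAT2 2.1.0, featureCounts, DESeq2 and mm10 were used, with no roles given. The sources used here do not state a strand setting for counting. Of 53619 gene symbols 28471 matched the GENCODE annotation of GRCm38. Here, edgeR 4.0.16 (R 4.3.3, limma 3.58.1) fitted the 18 granulosa pools with 6 group means, TMM factors and a quasi-likelihood test with 12 residual degrees of freedom. A minimum count of 10 (filterByExpr) left 17558 genes, and p-values were adjusted over all of them by the Benjamini-Hochberg method. CPM values are TMM-scaled. DESeq2 1.42.0, other size factors, no filter, smaller models, a replicate block and leaving out each pool were alternatives. Same-numbered pools did not deviate together (r = 0.04, −0.14 and −0.187), so they were not paired. Named genes were those past the threshold in either tool, the leading genes among those with at least 10 CPM, the leading members of each list, all detected macrophage, class II and B-cell markers, and leading genes of the difference between labels. The members and lists were chosen with earlier results of these data known. Counting intervals are exact at 95% and cover counting error only. The scripts were tested on simulated data.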

Additional observations from a re-analysis of the deposited data

Results flagged for a closer look

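The genes named here were singled out because the resveratrol effect in old pools labelled knockout differed from that in old wild-type pools, by the test of that difference itself (edgeR quasi-likelihood test, adjusted p under 0.05). Values are the log2 change in pools labelled knockout minus the log2 change in wild-type pools. Among the macrophage markers the difference was −7.13 for C1qb, −6.83 for C1qc, −5.43 for Tyrobp, −4.58 for Spi1, −3.41 for Fcer1g and −3.14 for Cd68. Among other genes of phagocytes it was −6.73 for the chemokine gene Ccl9, −5.63 for arginase 1 (Arg1), −4.42 for Pla2g7, −3.19 for Ncf4, a subunit of the phagocyte oxidase, −2.70 for Pycard and −2.59 for S100a4. The osteoclast-like genes Acp5 and Ctsk were at −4.86 and −4.26. Cenpm was at −3.47 and the mitochondrial peroxiredoxin Prdx5 at −1.11. For Acp5, Ctsk, S100a4 and Prdx5 the log2 changes in pools labelled knockout were only −0.45, 0.35, −0.15 and −0.07. Those in wild-type pools were 4.41, 4.61, 2.44 and 1.04, so the differences lay mostly there. Wild-type resveratrol pools varied widely in Acp5 (56.5 ± 71.3 CPM) and Ctsk (115.7 ± 135.4 CPM, SD, n = 3). The clone-named genes RP24-388D8.2 and RP24-144C5.1 were at −3.23 and −3.08. The difference was above 0 for RP24-250M7.2, at 3.28, and for Prune2, at 2.79.

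Trim12a, a member of the TRIM family, had the difference farthest from 0, at −18.11. It had 0.499, 0.0606 and 0.146 CPM in resveratrol pools and 372, 45.5 and 0.0515 CPM in solvent pools labelled knockout, against 1.08, 160 and 160 CPM and 0.621, 0.197 and 0 CPM in wild-type resveratrol and solvent pools. Each group with high values also held a pool near 0.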

How the results depend on the processing

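In pools labelled knockout, 132 genes passed without a filter on low counts, 19 by DESeq2, 8 with the 12 old pools and 13 with the 6 pools alone, against 5 in the model of 18 pools. Leaving out 1 pool gave 0 to 19. Among the 132 were Igkc (lower), Iglc1 and Gpx3 (both higher). For the difference between labels the counts were 252, 73 by DESeq2 and 67 with the 12 old pools, against 28, and 4 to 51 with 1 pool left out. With the replicate block 7 and 25 genes passed, and the numbers were not found to pair the pools. Leaving out 1 pool turned the log2 change of 12 named genes, none of which passed in any setting: the ranges were −0.64 to 0.086 for Cd74, −1.32 to 0.076 for Cd79a, −0.32 to 0.27 for Csf1r, −0.12 to 0.073 for Cyp11a1, −0.15 to 0.17 for Fcgr3, −0.87 to 0.26 for H2-Aa, −0.0096 to 0.045 for Serpine2, −0.65 to 0.41 for Sirt1, −0.10 to 0.096 for Star, −0.83 to 0.065 for Tet1, −0.24 to 0.24 for Tet2 and −0.056 to 0.28 for Tet3. The log2 ratio of summed macrophage markers was −1.83, and −1.42 without Lyz2. Medians of the theca, stromal, T and NK cell, oocyte and surface epithelium lists, each of 3 to 8 tested genes, moved by more than their spread with 1 pool left out. With 3 pools per group, genes with few counts limit what can be called.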

Other observations

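Some genes were high in some pools of a group and low in others, and these were chosen after their values were seen. H2-Q10, a class Ib histocompatibility gene, averaged 169 ± 21.3 CPM in resveratrol pools and 73.2 ± 119 CPM in solvent pools labelled knockout (SD, n = 3 each), so the spread of the solvent pools exceeded their mean. H2-T23, another gene of this class, averaged 43.6 ± 11.6 CPM and 36.9 ± 37.3 CPM in the same groups. Neither passed (edgeR adjusted p = 1.00 for both).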
